A study of Rattus norvegicus with 47 samples.

Results

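The early response of vitamin A-deficient rat liver to all-trans-retinoic acid (RA) was read from 6 of the 47 arrays of the series, chosen by their titles in the RA time course. They were 3 arrays of livers taken 3 h after about 100 µg of RA and 3 arrays of livers from rats given vehicle and killed at 0 h. Both groups were female Sprague-Dawley rats of 8 weeks, nursed by dams on a vitamin A-deficient purified diet and fed that diet from weaning, so that the vehicle rats were deficient too. The titles call the vehicle rats untreated, while the treatment notes state vehicle. Each array held RNA of 1 rat. The route of the 100 µg dose is not stated. Because no vehicle rats were killed at 3 h, RA and anything else that changes over those 3 h cannot be told apart. Other rats of the series were used for comparison. RA livers at 6 h (3 arrays), 10 h (4 arrays) and 16 h (3 arrays) came from the same time course. The diet experiment gave deficient (5 arrays) and adequate (6 arrays) livers with no RA dose, the adequate diet holding 4 mg of retinol per kg. The intravenous experiment gave livers of stock-fed, fasted rats 90 min after about 25 µg of RA (3 arrays) and after vehicle (2 arrays).

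RA is the form of vitamin A that acts on genes. It binds retinoic acid receptors, which sit with retinoid X receptors on direct repeats of a short hexamer in DNA. The liver stores most of the body's vitamin A as retinyl esters, and among the genes that RA is known to raise are enzymes that clear RA or return its precursors to storage.

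Values are log2 signals relative to the median of the array, so a difference of 1 is a doubling. A gene was called where its Benjamini-Hochberg adjusted p in limma was under 0.05 over all probe sets tested. A ± after a difference is the standard error (SE) from the fit, and after a group mean the standard deviation (SD). The SE rests on a spread estimated over all arrays of the experiment fitted (16 in the time course), not on the 6 arrays alone. It can thus be narrower or wider than their own spread. Cyp2c22 had an SD of 2.56 in vehicle livers and an SE of 0.60. Snx21 had SDs of 0.18 (RA) and 0.22 (vehicle) and an SE of 0.47. At 3 h, 22 of 28869 probe sets were called (0.0762%), of which 21 were higher (0.0727%) and 1 lower (0.00346%) than in vehicle livers. At an unadjusted p under 0.05, 560 were higher (1.94%) and 385 lower (1.33%). The called probe sets with a gene name were 14 of the 13647 genes tested (0.103%), all higher after RA. No named gene was called lower, while 161 had an unadjusted p under 0.05 in limma in that direction (1.18%). All 22 called probe sets had 3 RA arrays beyond all 3 vehicle arrays, as did 5.28% of tested probe sets upward and 4.4% downward. The median change of all probe sets tested was 0.03. In whole-liver RNA, fewer cells of a type and less RNA per cell cannot be told apart.

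The 6 arrays differed in quality, and the vehicle rats differed among themselves. Vehicle replicate 1 had a mean correlation with its group of 0.796, against 0.825 to 0.828 for the other 5 arrays, and a difference between the 3′ and 5′ Gapdh control probe sets of 0.947, against 0.435 to 0.476. Of the 21 probe sets called higher, vehicle replicate 1 was the lowest vehicle array for 18 and vehicle replicate 2 the highest for 18. Over all probe sets tested, vehicle replicate 1 was lowest for 52.2% and vehicle replicate 2 highest for 40.6%. The number of called probe sets was 8, 11 and 12 without RA replicate 1, 2 and 3. It was 4, 40 and 10 without vehicle replicate 1, 2 and 3. Of the 14 named genes, Angptl8, Cyp26a1 and LOC102550246 were called whichever of the 6 arrays was left out. Without an intensity trend in the variance, limma called 0 probe sets, and 1034 had an unadjusted p under 0.05. Hepatocyte markers averaged 8.49 to 8.81 on the RA arrays and 8.50 to 8.93 on the vehicle arrays, and 0 of 9 were called by limma (0 also at an unadjusted p under 0.05).

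The sequences before the starts of the 4 called genes of RA action and retinoid metabolism are shown because the receptors of RA bind direct repeats near such genes. They are the 250 bases upstream of the RefSeq start on the strand of the gene (build GRCr8), at chr1:244883572-244883821 on the plus strand for Cyp26a1, chr15:11336142-11336391 on the plus strand for Rarb, chr1:248980768-248981017 on the minus strand for Cyp2c22 and chr5:162031603-162031852 on the plus strand for Dhrs3. Capitals mark each match, on either strand, to the hexamer AGGTCA, the form AGTTCA, the form GGGTCA or the form GGTTCA, which are variants of the receptors' recognition letters.
Cyp26a1: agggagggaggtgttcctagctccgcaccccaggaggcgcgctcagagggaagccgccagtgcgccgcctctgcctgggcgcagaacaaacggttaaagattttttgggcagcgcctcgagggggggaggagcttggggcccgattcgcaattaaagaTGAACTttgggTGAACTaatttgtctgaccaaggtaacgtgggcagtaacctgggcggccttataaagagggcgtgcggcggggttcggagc
Rarb: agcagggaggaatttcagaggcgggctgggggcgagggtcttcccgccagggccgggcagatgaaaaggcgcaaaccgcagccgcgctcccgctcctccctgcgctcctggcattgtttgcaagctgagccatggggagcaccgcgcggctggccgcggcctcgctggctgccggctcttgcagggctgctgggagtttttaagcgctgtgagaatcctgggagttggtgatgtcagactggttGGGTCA
Cyp2c22: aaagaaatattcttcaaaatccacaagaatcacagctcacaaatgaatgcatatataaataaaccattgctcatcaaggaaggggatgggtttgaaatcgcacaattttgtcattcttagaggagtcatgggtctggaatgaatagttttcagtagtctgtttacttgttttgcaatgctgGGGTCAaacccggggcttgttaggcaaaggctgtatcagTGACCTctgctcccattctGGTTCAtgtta
Dhrs3: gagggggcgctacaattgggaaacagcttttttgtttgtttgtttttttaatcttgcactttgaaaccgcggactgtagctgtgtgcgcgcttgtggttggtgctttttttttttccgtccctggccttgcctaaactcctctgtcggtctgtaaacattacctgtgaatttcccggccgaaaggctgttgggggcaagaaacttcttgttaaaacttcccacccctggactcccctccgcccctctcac
The capitals before Cyp26a1 form a direct repeat on the other strand with 5 letters between its hexamers, at -92 to -76 from the start. Of the 14 called genes, 12 had an entry among the RefSeq promoters. Such a repeat, with 1, 2 or 5 letters between hexamers, was in the window of 1 of these 12 and of 0.651% of all 33469 promoters. Single hexamers were in the windows of 5 of the 12 (Cyp26a1, Nr0b2, Cyp2c22, Rarb and Dact2) and in 39.1% of all promoters. Only these 250 bases before the RefSeq start were searched, so repeats further upstream or after the start were not counted. A match is a description of letters and not of binding.

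Cyp26a1, the hydroxylase that clears RA, had the largest change of the 14 genes. Its signals were 4.03, 3.50 and 4.60 in RA livers, against -0.89, -1.14 and -4.73 in vehicle livers. The groups did not overlap, and vehicle replicate 3 lay far below the other vehicle arrays, near the floor of that array at -5.32. The difference was 6.30 ± 0.94, or 78.6-fold (adjusted p = 0.0022), and 5.06 to 6.98 when each array was left out in turn. Cyp2c22, a rat cytochrome P450 known to oxidise RA, had signals of 8.04, 7.82 and 7.92 in RA livers, against 2.54, 7.11 and 2.83 in vehicle livers. Vehicle replicate 2 was thus close to the RA arrays. The difference was 3.76 ± 0.60, or 13.6-fold (adjusted p = 0.00263), and 5.24 without vehicle replicate 2. It was 2.95 without vehicle replicate 1 (adjusted p = 0.0785) and 3.10 without vehicle replicate 3 (adjusted p = 0.0562), where the call was lost.

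Dhrs3, which reduces retinaldehyde to retinol, had signals of 5.62, 5.31 and 5.93 in RA livers, against 3.46, 4.45 and 4.17 in vehicle livers. The difference was 1.59 ± 0.25, or 3.02-fold (adjusted p = 0.0024), with no overlap, and the adjusted p was 0.0606 without vehicle replicate 1. The long non-coding RNA LOC102550246 lies beside it on chromosome 5 and is read from the other strand. The first bases of this gene and Dhrs3 are 997 bases apart in RefSeq (GRCr8), and 0 genes start between them. Its signals were 2.32, 2.52 and 1.92 in RA livers, against -2.46, 0.11 and -0.06 in vehicle livers. Both neighbours were therefore higher in all RA arrays, and the difference for LOC102550246 was 3.06 ± 0.49, or 8.35-fold (adjusted p = 0.00265). Without vehicle replicate 1 it was 2.23 (adjusted p = 0.041). Rarb, an RA receptor whose own gene is a known RA target, had signals of 5.71, 5.46 and 5.25 in RA livers, against 3.25, 4.32 and 3.52 in vehicle livers. The difference was 1.78 ± 0.29, or 3.43-fold (adjusted p = 0.00323), without overlap. The call was lost without vehicle replicate 1 (adjusted p = 0.0785) or without RA replicate 1.

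Of the 24 tested members of a list of known RA receptor targets, 3 were called higher (Cyp26a1, Dhrs3 and Rarb) and 0 lower. The list median was 0.26 against 0.03 for all genes. Of all 13647 genes tested, 0.103% were called higher and 0 lower, the background for each list count here and below. Members and lists were chosen with earlier results of these data known, so list counts and medians describe the lists and test nothing. The esterifying enzyme Lrat, with signals of 2.84, 3.07 and 2.79 in RA livers and -0.39, 2.62 and -4.18 in vehicle livers, was not called (3.55 ± 0.82, adjusted p = 0.122). The related hydroxylase Cyp26b1 was not called either (3.36 ± 0.79, adjusted p = 0.145). Vehicle replicate 2 was the highest vehicle array for both genes. A second probe set of Cyp26b1 gave 1.55 ± 1.16, with overlapping groups, and was not called. The receptors Rara (-0.02 ± 0.63) and Rxra (-0.06 ± 0.68) had overlapping groups. The 2 probe sets of Rarg gave 0.36 ± 0.89 and 4.23 ± 1.22, neither called. The second of these averaged -4.51 in vehicle livers, near the floors of those arrays (-5.77 to -5.24), so its size is uncertain. Among retinoid receptors, binding proteins and corepressors 1 of 13 was called, among storage and reduction genes 1 of 17, and among oxidising enzymes 2 of 17. Lists can share members, so these counts add no genes beyond the 14. Rarb and Cyp26a1, counted among the RA targets, are counted again here. Retinol-binding protein Rbp4 (-0.06 ± 0.20), the retinol receptor Stra6 (-0.88 ± 0.96), the RA-binding protein Crabp2 (-0.87 ± 1.41), transglutaminase Tgm2 (0.36 ± 0.26) and Cyp3a9 (0.47 ± 0.42) were not called.

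**Figure D1:**
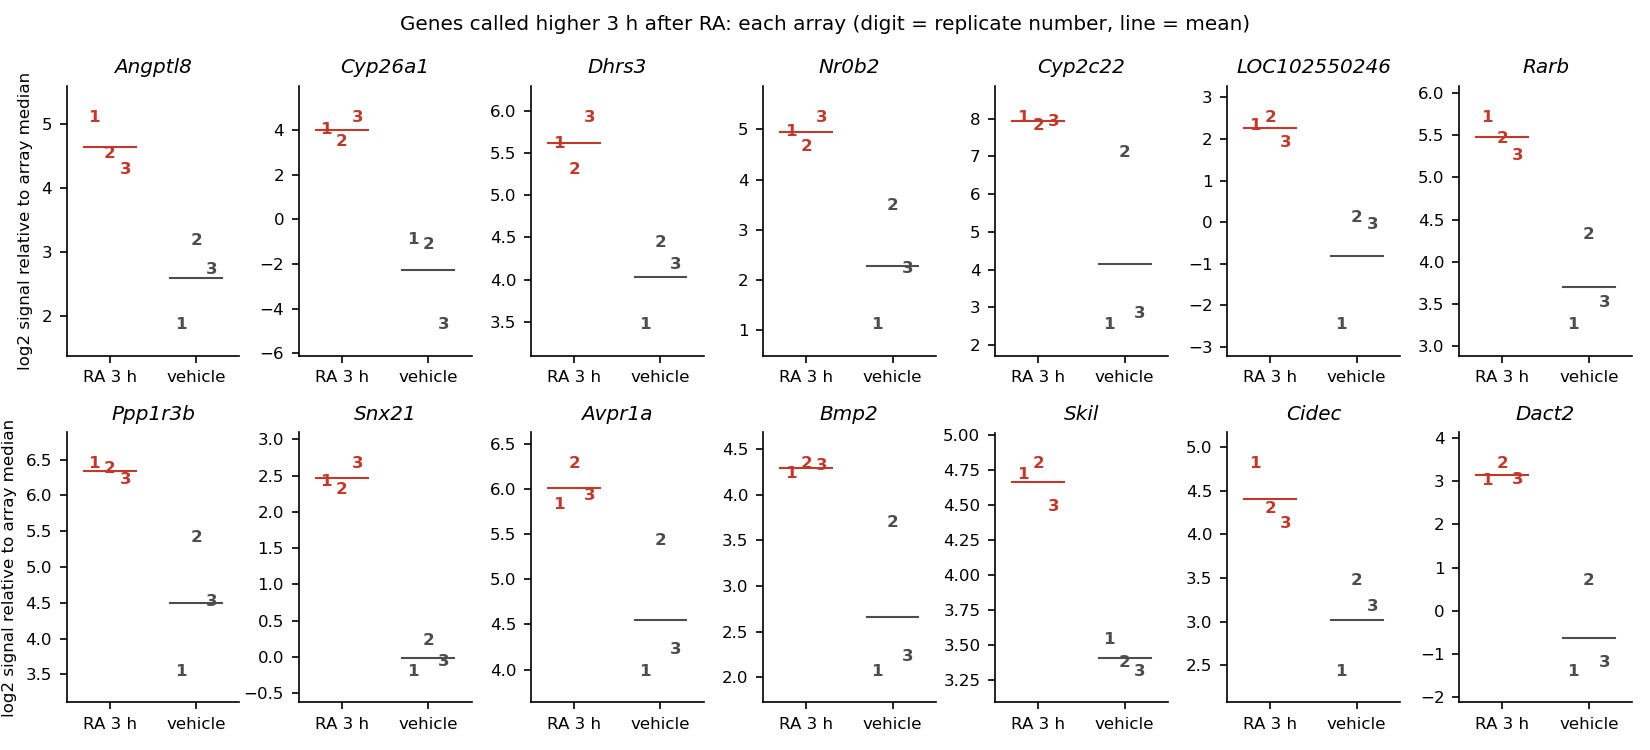
Log2 signal relative to the array median (y axis, own scale for each gene) of the 14 named genes called at 3 h, with RA 3 h arrays (red) left of vehicle arrays (grey). Digits are replicate numbers and lines are group means of 3 arrays. No gene has overlapping groups, and vehicle replicate 2 is close to the RA arrays for Cyp2c22.

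Genes of lipid and glycogen handling were among the called genes. Angptl8, which encodes a secreted regulator of lipoprotein lipase, had signals of 5.10, 4.54 and 4.28 in RA livers, against 1.86, 3.18 and 2.72 in vehicle livers. The difference was 2.06 ± 0.29, or 4.16-fold (adjusted p = 0.00219), and 1.69 to 2.35 with each array left out. Ppp1r3b, which targets protein phosphatase 1 to glycogen, had signals of 6.45, 6.37 and 6.23 in RA livers, against 3.54, 5.42 and 4.52 in vehicle livers. Its RA arrays lay close together while the vehicle arrays were spread, and the difference was 1.85 ± 0.31, or 3.62-fold (adjusted p = 0.0042). A second, dimmer probe set of Ppp1r3b gave 1.33 ± 0.75 and was not called, and the first lost its call without vehicle replicate 1 (adjusted p = 0.0785) or RA replicate 1. Cidec, a lipid droplet protein, had signals of 4.81, 4.29 and 4.12 in RA livers, against 2.43, 3.47 and 3.17 in vehicle livers. The difference was 1.38 ± 0.28, or 2.61-fold (adjusted p = 0.0411), and of the 6 arrays vehicle replicate 2 was the only one whose omission left the call standing.

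Cidec is also an adipocyte marker. The 7 adipocyte markers measured averaged 0.05 to 0.14 on the RA arrays and -0.66 to 0.01 on the vehicle arrays. The defining markers Adipoq (-0.80 ± 1.45), Fabp4 (-1.26 ± 1.31), Plin1 (0.92 ± 1.14) and Lep (1.21 ± 1.44) were not called, and each lay below the array median on all 6 arrays. Of the other markers, Lipe (0.69 ± 0.83) and Cfd (0.12 ± 0.40) were not called, and Cfd lay above the array median on all 6 arrays. The median difference of the list was 0.69, the largest of the 36 lists, against 0.03 for all genes. The part of adipocyte RNA in the Cidec difference was not tested. Of 29 lipogenic genes, 2 were called higher (Angptl8 and Cidec) and 0 lower, with a median of 0.28. Fatty acid synthase Fasn (0.51 ± 0.48) and its regulator Srebf1 (0.27 ± 0.29) had overlapping groups. Among lipase regulators and lipoproteins 1 of 17 was called, and among glycolysis and glycogen genes 1 of 20.

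Nr0b2, a nuclear receptor without a DNA-binding domain that represses bile acid synthesis, had signals of 4.97, 4.65 and 5.25 in RA livers, against 1.10, 3.48 and 2.23 in vehicle livers. The groups did not overlap, although the vehicle arrays spanned more than the RA arrays. The difference was 2.69 ± 0.42, or 6.43-fold (adjusted p = 0.0024), and 2.10 without vehicle replicate 1, where the call was lost (adjusted p = 0.0785), and 3.29 without vehicle replicate 2. Nr0b2 was 1 of 28 nuclear receptor genes and 1 of 28 bile acid genes called. Cyp7a1, the rate-limiting enzyme of bile acid synthesis, had signals of 1.97, -1.26 and 1.05 in RA livers and 0.85, 0.99 and 5.18 in vehicle livers, and was not called (-1.75 ± 0.87, adjusted p = 1). The bile acid receptor gene Nr1h4 (0.76 ± 0.25, adjusted p = 1) and the steroid 17-hydroxylase Cyp17a1 (0.50 ± 0.36) were not called.

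The remaining called genes, Avpr1a, Bmp2, Skil, Dact2 and Snx21, each had an adjusted p of 0.0262 or more. Avpr1a, the hepatic vasopressin receptor, had signals of 5.83, 6.28 and 5.93 in RA livers, against 3.98, 5.43 and 4.22 in vehicle livers (difference 1.47 ± 0.28, adjusted p = 0.0262). The ligand gene Bmp2 had signals of 4.23, 4.34 and 4.32 in RA livers, against 2.06, 3.70 and 2.22 in vehicle livers (1.64 ± 0.32, adjusted p = 0.0314). For both genes the groups did not overlap and vehicle replicate 2 was nearest to the RA arrays. A second, dimmer probe set of Bmp2 gave 1.53 ± 0.56, also without overlap, and was not called. Bmp2 is known in liver from sinusoidal endothelial cells. It was the only called gene of 12 such markers, which averaged 2.39 to 2.55 on the RA arrays and 1.91 to 2.75 on the vehicle arrays, with a list median of 0.00 and differences of -0.70 to 0.30 for the other 11. Hepcidin (Hamp), a target of BMP signalling, had -0.05 ± 0.26, and Id1, another, had -0.10 ± 0.47, both with overlapping groups. Other BMP targets of the list, Id2 (0.80 ± 0.26), Atoh8 (0.89 ± 0.38) and Id3 (0.67 ± 0.34), had all 3 RA arrays above all 3 vehicle arrays and were not called. Id4 of the same list was lower (-0.70 ± 0.33), with overlapping groups, and not called. Of the 35 genes of the list, 5 had all RA arrays above and 1 had all below, against 5.28% and 4.4% of all probe sets tested.

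Skil, a corepressor of SMAD proteins, had signals of 4.72, 4.79 and 4.49 in RA livers, against 3.54, 3.38 and 3.31 in vehicle livers. Both groups were tight, and the difference was 1.25 ± 0.25, or 2.39-fold (adjusted p = 0.0411), although the call was lost whichever array was left out. Dact2, which binds Dishevelled and is known in zebrafish to limit Nodal signalling, had signals of 3.02, 3.40 and 3.03 in RA livers, against -1.40, 0.71 and -1.19 in vehicle livers. The groups stood well apart, with a difference of 3.78 ± 0.77, or 13.7-fold (adjusted p = 0.0431), and of 4.45 without vehicle replicate 2. Snx21, a sorting nexin, had signals of 2.42, 2.31 and 2.67 in RA livers, against -0.20, 0.23 and -0.06 in vehicle livers (difference 2.48 ± 0.47, adjusted p = 0.0262). Neither group of Snx21 was wide. For Avpr1a, Bmp2, Dact2 and Snx21, leaving out vehicle replicate 2 was the only omission of the 6 that kept the call. In the lists, 1 of 35 BMP and TGF-beta genes (Bmp2) and 1 of 27 WNT and Nodal genes (Dact2) were called.

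The other 8 called probe sets had no gene name in the annotation used. Of these, 7 were higher in RA livers by 1.30 to 3.16, the largest being 1387312_a_at with 4.80, 4.65 and 5.58 in RA livers against 0.50, 2.60 and 2.46 in vehicle livers. Probe set 1379437_at was the only one lower, with 3.87, 4.21 and 3.95 in RA livers against 4.98, 5.20 and 5.83 in vehicle livers (-1.33 ± 0.27, adjusted p = 0.0448).

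Just outside the threshold stood Alas1 (1.78 ± 0.37, adjusted p = 0.0507), the first enzyme of haem synthesis, with 5.95, 5.66 and 6.62 in RA livers against 3.22, 5.43 and 4.22 in vehicle livers. Just inside it stood the unnamed 1379437_at (adjusted p = 0.0448), and the last named gene inside it was Dact2 (adjusted p = 0.0431). The next named genes after Alas1 were Pdlim1 (1.75 ± 0.36, adjusted p = 0.0523) and Hyls1 (1.75 ± 0.37, adjusted p = 0.0545). Of genes not called but with separated groups and an unadjusted p under 0.001, the rule for named genes took the 10 largest positive differences. They were Tsku (4.69 ± 1.00), Gpr161 (4.60 ± 1.20), Micall2 (4.34 ± 1.18), Gdf15 (3.84 ± 0.81), Lrat, Cyp26b1, Ccl24 (2.95 ± 0.71), Lifr (2.52 ± 0.68), Igfbp2 (2.22 ± 0.51) and Alas1. Their adjusted p ran from 0.0507 for Alas1 to 0.471 for Micall2. Vehicle signals of several of these lay at or near the floor of their array (-5.77 to -5.24), such as Gpr161 at -5.29, -3.61 and -5.32, Micall2 at -4.29, -4.48 and -3.68 and Tsku at -4.57 on replicate 1, so the sizes and their order are uncertain. Negative differences were Il16 (-4.36 ± 1.05), Tox (-2.18 ± 0.49), the hepatocyte factor Onecut1 (-1.63 ± 0.41), Arrdc3 (-1.31 ± 0.33) and Arhgef3 (-1.27 ± 0.34). Il16 signals in RA livers were -3.77, -4.24 and -1.94, the lower of them toward the floors of those arrays (-5.44 to -5.31). The size of the Il16 difference is therefore uncertain too. Onecut1 had 3.10, 3.54 and 3.75 in RA livers against 4.53, 5.21 and 5.53 in vehicle livers, with an adjusted p of 0.247.

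Lists without any called member included cholesterol synthesis (22 genes tested), fatty acid oxidation and PPARA targets (31), gluconeogenesis and amino acid catabolism (25), insulin and IGF signalling (25), hepatocyte lineage factors (19), core clock (13), clock output (18), glucocorticoid-induced genes (21), immediate early genes (35), acute phase and NF-kappaB genes (37), interferon response (32), endoplasmic reticulum stress (27) and cell cycle (28). Of their 313 genes, 17 were higher and 7 lower at an unadjusted p under 0.05 in limma, against 1.94% and 1.33% of all probe sets tested. The list medians ran from -0.25 to 0.22. Among drug metabolism genes of the receptors CAR, PXR and AHR, 1 of 31 was called (Cyp2c22). The 2 members with the lowest unadjusted p in each of these lists were the following, and none was called. For metabolism they were the sterol sensor Insig1 (1.25 ± 0.46) and the sterol carrier Stard4 (-0.71 ± 0.37), the acyl-CoA thioesterase Acot1 (3.31 ± 1.28) and the oxidation enzyme Eci2 (0.50 ± 0.23), the transaminase Gpt2 (0.62 ± 0.34) and tryptophan dioxygenase Tdo2 (-0.32 ± 0.25), and the IGF-binding proteins Igfbp2 (2.22 ± 0.51) and Igfbp1 (-1.24 ± 0.42). For lineage, clock and hormone lists they were Onecut1 (-1.63 ± 0.41) and the factor Klf15 (1.07 ± 0.31), Per2 (2.54 ± 0.95) and Cry1 (0.66 ± 0.45), Alas1 (1.78 ± 0.37) and P450 reductase Por (0.80 ± 0.28), and, among glucocorticoid-induced genes, Klf15 and Igfbp1 again. For stress, immune and growth lists they were Gadd45a (1.18 ± 0.37) and Klf10 (0.65 ± 0.27), Tnf (2.47 ± 1.25) and Ccl2 (2.91, adjusted p = 1), the interferon regulatory factor Irf1 (1.65 ± 0.37) and Ifit2 (0.43 ± 0.30), Herpud1 (-0.57 ± 0.26) and Ddit3 (0.81 ± 0.39), and Cdkn1a (1.13 ± 0.51) and Aurka (1.92 ± 1.20). Irf1 had 4.50, 3.96 and 4.26 in RA livers against 3.10, 2.57 and 2.10 in vehicle livers (adjusted p = 0.084). The clock genes Per1 (0.46 ± 1.19), Nr1d1 (-0.80 ± 0.83) and Dbp (-1.94 ± 0.72) were not called, and the Dbp arrays were -1.28, -0.03 and -0.13 in RA livers against 1.42, 0.06 and 2.92 in vehicle livers, which do not overlap. Marker lists of Kupffer cells, stellate cells, cholangiocytes, B cells, T and NK cells, neutrophils, erythroid cells and pancreatic acinar cells, like hepatocytes, had 0 called members. Of these 76 markers, 2 were higher (Lrat, also a stellate cell marker, and Cd4, 2.06 ± 0.93) and 0 lower at an unadjusted p under 0.05. The shares of all probe sets tested were 1.94% and 1.33%.

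**Figure D2:**
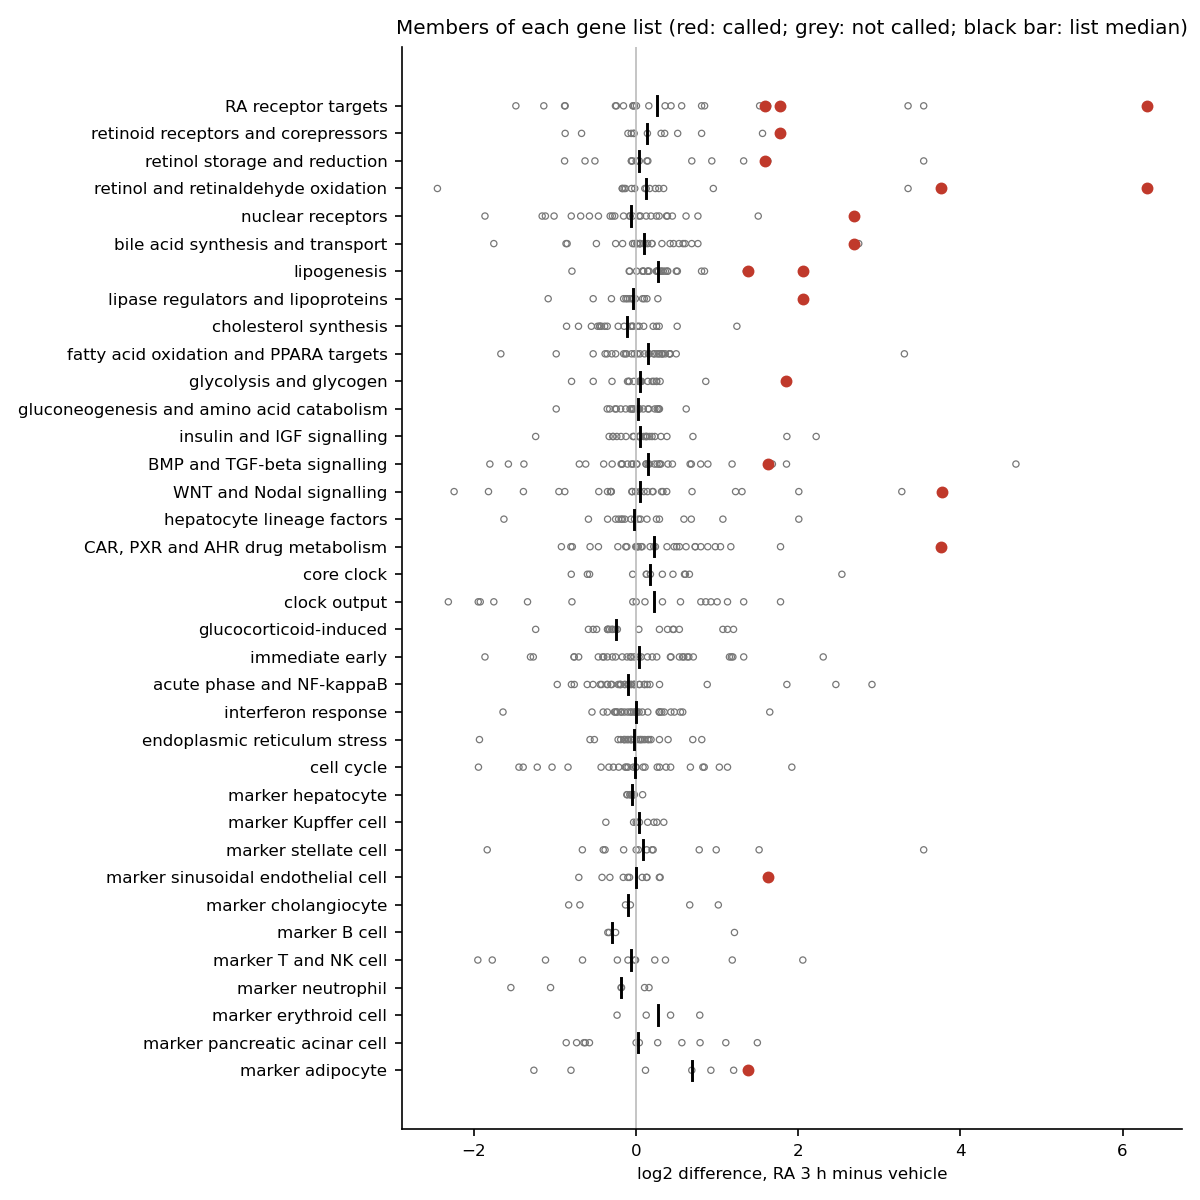
Log2 difference, RA 3 h minus vehicle (x axis), of every tested member of 36 gene lists (rows). Red points are called genes, open points are genes not called and black bars are list medians; the 14 lists with red points hold 1 to 3 each.

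Later livers of the time course showed how long the 3 h levels lasted. Comparisons with later times share the RA 3 h arrays that chose the 14 genes, so these values describe the course and do not support the calls. The highest mean of the 4 RA times was at 3 h for 7 genes, at 6 h for 6 genes and at 10 h for Cyp2c22. Between 3 h and 6 h, 6 probe sets were called (0.0208%), all higher at 3 h, and of the 14 genes only Skil was called (0.0366% of genes). In the fit to only the arrays compared, 1 of the 14 was called higher and 2 lower at 3 h than at 6 h. Skil averaged 4.66 ± 0.16 at 3 h and 2.65 ± 0.08 at 6 h (SD, n = 3 each; difference 2.01 ± 0.25, adjusted p = 0.00024), with 3.41 ± 0.12 in vehicle livers. The other named genes called higher at 3 h than at 6 h, picked after their values were seen, were S1pr1 (1.39 ± 0.24), Nrep (2.28 ± 0.41), Pfkfb1 (2.42 ± 0.45) and Smyd3 (3.80 ± 0.71). Against vehicle at 3 h these 4 had differences of -0.12 to 0.21, none called.

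Between 3 h and 10 h, 4 of the 14 genes were called higher at 3 h (background 0.638% of genes), namely Angptl8, Nr0b2, Rarb and Skil. Nr0b2 averaged 4.95 ± 0.30 at 3 h, 5.04 ± 0.63 at 6 h and 1.64 ± 0.35 at 10 h (SD, n = 3, 3 and 4), and its 3 h level was 3.31 ± 0.39 above that at 10 h. The median of all probe sets was itself 0.12, 0.23 and 0.42 higher at 3 h than at 6, 10 and 16 h. After quantile normalization, which set these medians to 0.01, 0.02 and 0.06, 3 of the 14 were called higher than at 10 h, and 2 of the 14 without RA 3 h replicate 1 or 2 or without RA 10 h replicate 2 or 3. Array weights called 6 higher, the fit to only the arrays compared called 10 higher and 1 lower, and the fit without an intensity trend called 0. Quantile normalization called 5 probe sets higher and 1 lower at 3 h than at 6 h, and 65 higher and 38 lower than at 10 h in place of 127 (0.44%) and 5 (0.0173%). Between 3 h and 16 h, 10 of the 14 were called higher at 3 h (background 11.7%), and 7 after quantile normalization, which called 259 probe sets higher and 97 lower in place of 2427 (8.41%) and 86 (0.298%). The arrays at 16 h correlated least within their group, at 0.656, 0.678 and 0.692 on average for replicates 1, 2 and 3. Without replicates 1 and 2, 3 of the 14 were called, with the lone array assumed to vary like the other groups. For Cyp2c22 no difference between 3 h and a later time was called, with means of 7.93 ± 0.11 at 3 h, 8.54 ± 0.23 at 6 h, 8.77 ± 0.11 at 10 h and 7.85 ± 0.72 at 16 h. Cyp26a1 averaged 4.04 ± 0.55 at 3 h, 6.42 ± 0.13 at 6 h, 4.04 ± 0.96 at 10 h and 0.61 ± 3.44 at 16 h.

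**Figure D3:**
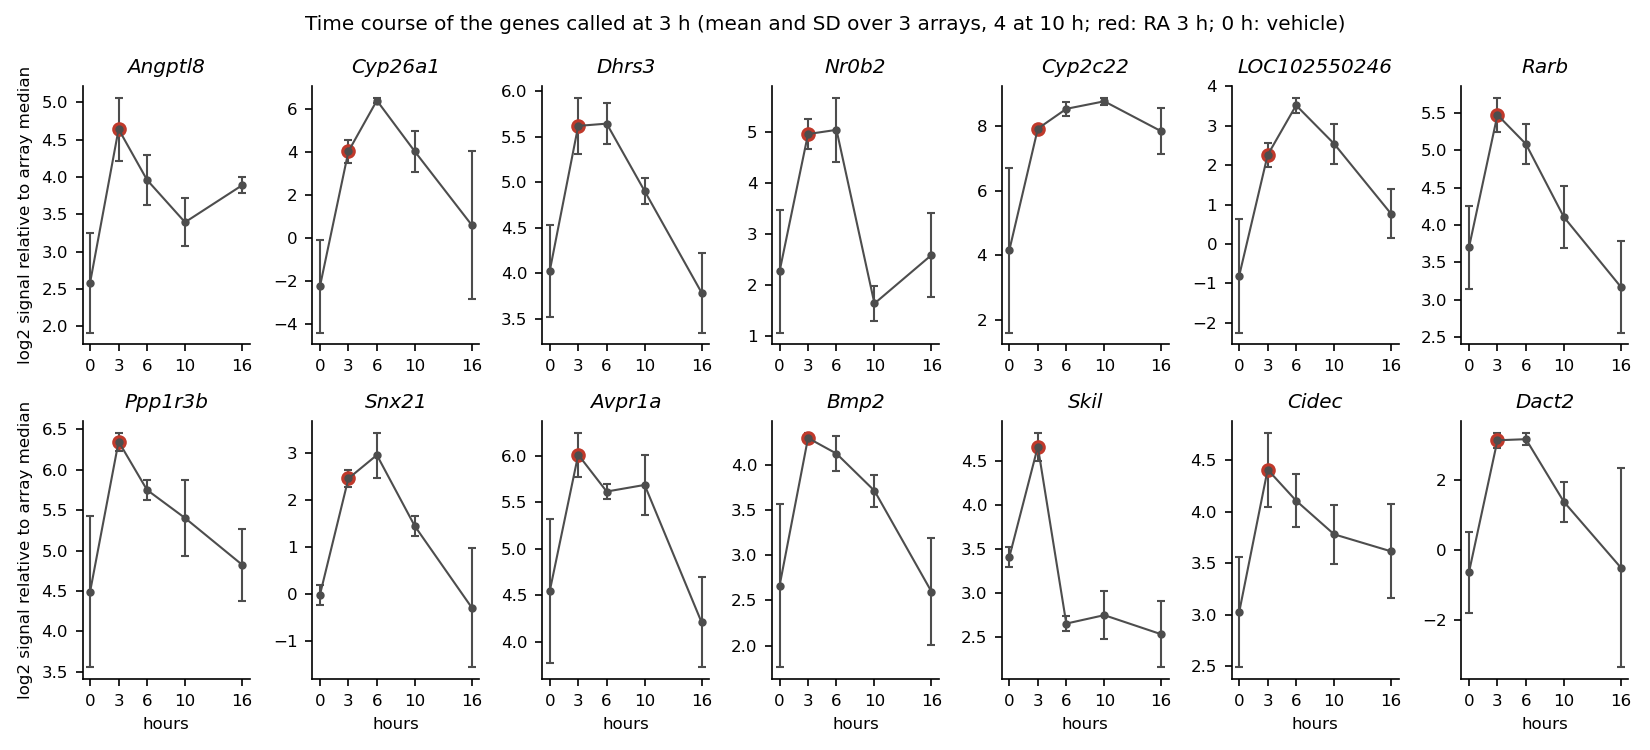
Mean log2 signal relative to the array median (y axis, own scale for each gene) against hours (x axis; 0 is vehicle) for the 14 genes, with SD bars over 3 arrays, or 4 at 10 h. The red point marks RA at 3 h. Skil is at 2.65 at 6 h and Nr0b2 at 1.64 at 10 h, both below vehicle, while Cyp2c22 is at 7.85 at 16 h, above vehicle.

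Other rats gave values for the same genes on arrays that did not choose them. In the diet experiment, 13 of the 14 genes were lower in deficient than in adequate livers and 7 were called lower, against 196 of all 13296 genes tested (1.47%). They were Angptl8 (-1.06 ± 0.20), Cyp26a1 (-1.94 ± 0.46), Cyp2c22 (-4.57 ± 0.29), Rarb (-1.28 ± 0.24), Ppp1r3b (-1.81 ± 0.18), Avpr1a (-1.30 ± 0.19) and Bmp2 (-1.22 ± 0.29). Ppp1r3b averaged 3.11 ± 0.40 in deficient livers (SD, n = 5) and 4.96 ± 0.24 in adequate livers (SD, n = 6). Skil (-0.29 ± 0.25), Nr0b2 (-0.30 ± 0.27) and Snx21 (0.09 ± 0.84) were not called there. Over all probe sets the diet comparison had a median of -0.11 with 22 called higher (0.0797%) and 277 lower (1%), against 119 and 219 after quantile normalization, where 6 of the 14 genes were called lower.

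At 90 min after the intravenous dose, 11 of the 14 genes were higher than in vehicle livers and 6 were called higher, against 60 of all 11798 genes tested (0.509%). They were Cyp26a1 (5.61 ± 0.56), Nr0b2 (1.96 ± 0.33), Cyp2c22 (1.81 ± 0.16), Rarb (1.45 ± 0.18), Ppp1r3b (2.09 ± 0.30) and Bmp2 (0.70 ± 0.14). With each array left out, 3 to 5 of the 14 were called, the fewest without vehicle replicate 2. Nr0b2 averaged 3.75 ± 0.36 in RA livers (SD, n = 3) and 1.80 ± 0.08 in vehicle livers (SD, n = 2). Dhrs3 (0.25 ± 0.15), LOC102550246 (-0.12 ± 0.43), Angptl8 (0.08 ± 0.35), Snx21 (-0.39 ± 0.59) and Avpr1a (-0.40 ± 0.25) were not called at 90 min. The dose, time and diet differ from those of the 3 h rats. The intravenous rats were also fasted, and the route of the 3 h dose is not stated. No test of the difference between the experiments was made. Cyp26a1, Cyp2c22, Rarb, Ppp1r3b and Bmp2 were called in all 3 comparisons.

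**Figure D4:**
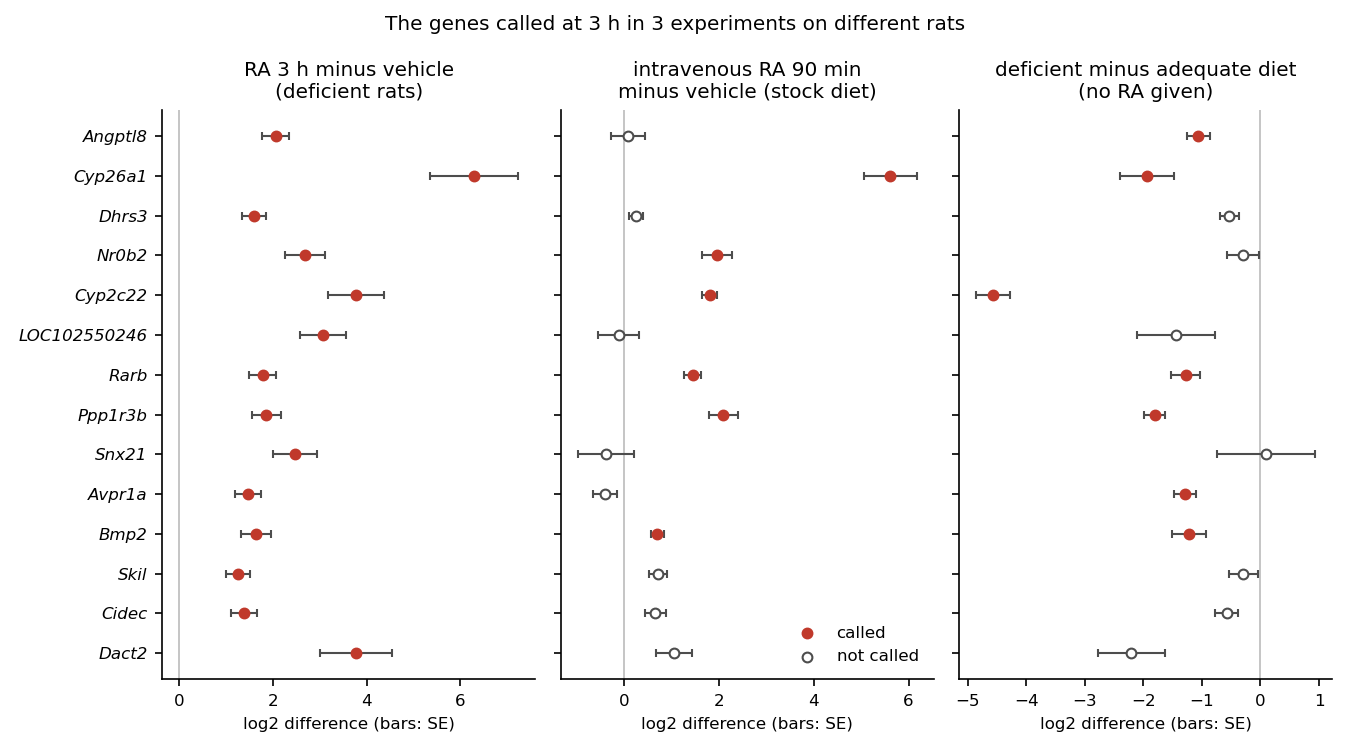
Log2 differences with SE bars (x axes, own scale in each panel) of the 14 genes (rows) for RA 3 h minus vehicle, intravenous RA 90 min minus vehicle, and deficient minus adequate diet. Red points are called and open points are not; 6 genes are called at 90 min and 7 in the diet comparison.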

How the data were processed

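Liver RNA was measured on single-colour Affymetrix arrays, and the deposited table holds log2 signals as the authors deposited them. GCOS is named, with no version or role, per the submitters' processing notes. Array medians are 0 or close to it, and the lowest probe sets of an array share a floor. No detection calls were used. The number of arrays limits the precision. Tested were probe sets whose signal passed the 40th percentile on 2 or more arrays, counted separately in each experiment, without the 57 control probe sets. For the time course, limma 3.58.1 (R 4.3.3) took the means of all groups over 16 arrays, with empirical Bayes moderation that followed signal intensity. P-values were Benjamini-Hochberg adjusted over all probe sets tested, with 18.4 prior and 11 residual degrees of freedom. The diet experiment (20 arrays, with the run of database numbers in the titles as covariate) and the intravenous experiment (11 arrays) were fitted on their own.

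A gene is a probe set with 1 symbol in the platform annotation (20832 probe sets, 14217 genes), represented by its brightest probe set on average. Named genes were all called genes, a fixed set of retinoid and metabolic genes, and the called members of each of 36 lists (or the 2 with the lowest p). Added were up to 10 uncalled genes in each direction. These had the largest differences among genes with separated groups and an unadjusted p under 0.001 in limma. Members and lists were chosen with earlier results of these data known. Promoters are from RefSeq (GRCr8). The fit was tested on simulated data, and no result given here rests on that test. Alternatives were quantile normalization, no filter, no intensity trend, array weights, a common floor, a fold of at least 1.5, the replicate number as block, only the arrays compared, 16 h replicates 1 and 2 left out, no run covariate, the mean over probe sets and each array left out.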

Additional observations from a re-analysis of the deposited data

Results flagged for a closer look

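Of 42 groups of 4 to 6 arrays examined for the 14 genes, 2 held an array far from the others by Dixon's criterion, and chance flags about 1 in 20 groups. Dact2 on RA 10 h replicate 3 was 0.536, apart from the other 10 h arrays. Cyp26a1 on diet adequate replicate 1 was 1.26, apart from the other adequate arrays. The groups of 3 arrays at 3 h and after vehicle are too small for the criterion.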

How the results depend on the processing

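None of the 14 genes called at 3 h reversed under any of the 15 settings tried for single genes. The fit without an intensity trend kept 0 of their calls, while array weights, the common floor and the fit without RA 16 h replicates 1 and 2, which correlated least, kept 14. Quantile normalization kept 12, no filter 11, the mean over probe sets 9 and only the arrays of both groups 8. The count for RA 3 h minus vehicle, 22, was 34 after quantile normalization, 63 with array weights, 46 without those 16 h arrays, 0 without an intensity trend (limma, 1034 at an unadjusted p under 0.05) and 4 (without vehicle replicate 1) to 40 (without vehicle replicate 2) with each array left out. The count for 3 h minus 6 h, 6, was 3 without a filter, 37 with array weights, 80 with only the arrays compared, 22 without those 16 h arrays and 1 to 9 with each array left out. The count for 3 h minus 10 h, 132, was 1 without a trend, 703 with array weights, 74 with the replicate block, 1183 with only the arrays compared, 472 without those 16 h arrays and 47 to 189 with each array left out. The count for 3 h minus 16 h, 2513, was 356 after quantile normalization, 88 without a trend, 752 with only the arrays compared, 191 without those 16 h arrays and 727 (without RA 3 h replicate 1) to 5044 (without RA 16 h replicate 3) with each array left out. In the diet comparison 299 became 64 without a trend, 167 without the run covariate and 156 (without adequate replicate 2) to 1493 (without deficient replicate 4) with each array left out. In the intravenous comparison 115 became 28 without a trend and 43 to 88 with each array left out. With the replicate number as a block, 17 probe sets were called at 3 h, 15 of them among the 22, and 9 of the 14 genes kept the call. Over all probe sets tested, same-numbered RA 3 h and vehicle arrays did not deviate together (correlations of -0.038, -0.017 and -0.020). Whether same-numbered rats share anything that acts on few genes was not tested. Among uncalled genes the sign turned for Cyp2e1 (0.00052), Per1 (-0.13) and Rbp4 (0.026) with array weights and for Apob (1.55) as the mean over probe sets. With each array left out, changes took either sign for Ahsp (-0.74 to 1.69), Alas2 (-0.19 to 0.89), Cyp2e1 (-0.26 to 0.013), Cyp3a9 (-0.22 to 1.00), Fasn (-0.095 to 0.91), Hamp (-0.12 to 0.016), Id1 (-0.23 to 0.067), Per1 (-0.18 to 1.42), Rara (-0.17 to 0.16), Rbp4 (-0.17 to 0.029), Rxra (-0.18 to 0.11) and Srebf1 (-0.056 to 0.47). The cause of these shifts was not tested. Arrays per group, and signals near the floor, limit how well the size of changes is known. Such signals were in vehicle livers for Cyp26a1, Lrat, Cyp26b1, Gpr161, Micall2, Tsku and the second Rarg probe set. For Il16 they were in RA livers.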
